A study of Homo sapiens with 12 samples.

Results

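The 9 transcripts described here encode the kinases that carry RNA polymerase II into productive elongation, their cyclins and the proteins that hold the first of these kinases in reserve. They were fixed by name, with earlier results of these data known: CDK9, CCNT1 and CCNT2 (P-TEFb), HEXIM1, LARP7 and MEPCE (its 7SK inhibitors), and CDK12, CDK13 and CCNK. All 9 were found among the 22379 genes of the expression table and all 9 were among the 13811 genes tested. After 8 h of 1 μM triptolide every member was lower in every genotype on the spike-in scale, LARP7 alone changing direction under other scalings given below, and 8 of the 9 fell further than the median gene in each of the 3 genotypes. LARP7 fell by about as much as the median gene throughout. MEPCE and HEXIM1 had the lowest fold changes in control cells. CDK13 came next (log2 −4.24 ± 0.28, SE), within 1 SE of CCNT1 (−3.98 ± 0.27), so the order of these genes is not resolved.

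P-TEFb is a kinase made of CDK9 with cyclin T1 or T2, and it releases paused polymerase by phosphorylating the pausing factors NELF and DSIF and the polymerase C-terminal domain. Much of the cell's P-TEFb is kept inactive in a ribonucleoprotein built on the noncoding 7SK RNA, itself not analysed here, in which HEXIM1 inhibits the kinase, MEPCE caps 7SK and LARP7 binds its 3′ end. CDK12 and CDK13 pair with cyclin K, phosphorylate the same polymerase domain further into genes, and are known for keeping up long DNA repair genes. Triptolide binds XPB, the helicase of the general factor TFIIH, and blocks the start of transcription.

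The 12 libraries were of polyadenylated RNA from U2OS, an osteosarcoma line of human origin, and made up 6 groups of 2 replicates. All groups, controls included, had taken up by transient transfection a plasmid that encoded Cas9, puromycin resistance and a guide RNA, and had been selected in puromycin. The guide was nontargeting (NONT) or directed against NUP93, a nuclear pore subunit (NUP93-KO), or EXOSC5, a core subunit of the RNA exosome (EXOSC5-KO), and all 3 were pooled populations and not clones by the study's methods. Each genotype was untreated (DMSO in the treatment field of the labels) or received 1 μM triptolide for 8 h. The labels do not say that replicates came from separate cultures, so p-values measure the spread between these libraries, which may be technical. In these bulk samples fewer cells and less RNA per cell are told apart only by the spike-in, which was added in proportion to counted cells; an error in that count cannot be told apart from a change in RNA per cell.

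The values are estimated read counts divided by a size factor from ERCC spike-in RNAs, so that they follow mRNA per cell and not the share of a library. Approximate depth was 8.57 M to 11.9 M reads (M, mega) per library, 15795 to 16523 genes were above 0, and 1 read was worth 0.486 to 1.76 of these units. The lowest member value, 24.0 for HEXIM1 in NONT cells after triptolide, therefore rested on about 49.4 reads. The whole scale of a library moved between replicates: the median gene of the first NONT untreated library was 0.51 lower on the log2 scale than in the second, and the median member was 0.49 lower. The first NONT triptolide library was 0.25 higher than the second over all genes and 0.46 higher over the members. In the other groups the first minus the second replicate ranged from −0.14 to 0.11 over all genes and from −0.08 to 0.26 over the members.

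The mesenchymal markers VIM (24275 to 66974), SPARC, COL1A1 and FN1 were high in all 12 libraries, whereas RUNX2 ranged from 9.56 to 404, COL1A2 from 4.05 to 42 and TWIST1 was listed at 0 in all 12. CD3E, a leukocyte marker, was also at 0 in all 12. PTPRC and PECAM1 did not exceed 4.70 and 9.99, ALB was at 0 in 9 libraries, and the epithelial markers EPCAM and CDH1 lay at 16.8 to 47.6 and 13.5 to 69.7. The targeted transcripts were read next. NUP93 was 1753 and 2489 in untreated NONT cells and 1395 and 1432 in untreated NUP93-KO cells, a difference of −0.56 ± 0.20 (log2, SE) that did not pass the test across all genes (limma, adjusted p = 0.926). EXOSC5 was 299 and 481 in untreated NONT cells and 216 and 148 in untreated EXOSC5-KO cells, a difference of −1.08 ± 0.29 that did not pass either (limma, adjusted p = 0.151), and under triptolide the difference was −1.42 ± 0.29 (limma adjusted p = 0.00302). Under triptolide NUP93 was 1007 and 899 in NONT and 801 and 1019 in NUP93-KO cells, a difference of −0.07 ± 0.20 that did not pass (limma, adjusted p = 0.767), so the groups overlapped. The mRNA level of a gene cut by Cas9 need not fall, so these values check the labels in part only.

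Promoters are shown because triptolide acts at the start of transcription, and these 3 belong to the inhibitor group, whose members had both the lowest fold change and the smallest fall of the 9 in NONT cells. Each is the RefSeq window of 300 bases (GRCh38.p14) from 250 bases before the annotated start to 50 after it, read 5′ to 3′ on the plus strand. Capitals mark the TATA box letters TATAAA, the GC box letters GGGCGG and the CCAAT box letters CCAAT, or their reverse complements.
HEXIM1, chr17:45148225-45148524: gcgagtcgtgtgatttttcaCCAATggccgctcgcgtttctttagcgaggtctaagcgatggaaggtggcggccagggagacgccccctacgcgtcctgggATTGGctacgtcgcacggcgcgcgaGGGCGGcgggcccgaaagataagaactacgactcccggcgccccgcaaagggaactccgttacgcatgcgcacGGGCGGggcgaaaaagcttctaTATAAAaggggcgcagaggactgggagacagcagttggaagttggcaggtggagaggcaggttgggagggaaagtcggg
MEPCE, chr7:100428540-100428839: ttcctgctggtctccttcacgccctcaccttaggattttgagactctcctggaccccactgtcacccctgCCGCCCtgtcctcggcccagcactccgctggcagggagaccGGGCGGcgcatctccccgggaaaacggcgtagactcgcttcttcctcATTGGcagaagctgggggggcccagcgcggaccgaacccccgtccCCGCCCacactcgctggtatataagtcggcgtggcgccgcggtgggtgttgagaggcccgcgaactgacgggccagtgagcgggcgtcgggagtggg
LARP7, chr4:112636893-112637192: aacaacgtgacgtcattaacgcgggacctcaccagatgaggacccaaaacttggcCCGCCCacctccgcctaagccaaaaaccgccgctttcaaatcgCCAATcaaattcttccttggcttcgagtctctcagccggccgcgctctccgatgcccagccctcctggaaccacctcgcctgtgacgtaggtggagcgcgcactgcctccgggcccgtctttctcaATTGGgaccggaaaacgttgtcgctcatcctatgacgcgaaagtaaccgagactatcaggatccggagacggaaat
The HEXIM1 window was the only one of the 9 with TATAAA, which began 29 bases before the start, and 5.57% of 10497 promoters of tested genes held TATAAA on either strand. Only these exact letters were searched. A near match, such as tatataag in the MEPCE window, is neither marked nor counted, so a TATA box is not excluded in the other windows. GGGCGG was found in 8 of the 9 windows, all but that of CDK12, against 70.0% of all promoters. CCAAT was found in 6 of the 9 (CCNT1, CCNT2, HEXIM1, LARP7, MEPCE and CCNK) against 36.3%, and the E box letters CACGTG, not marked above, in that of CCNT1 alone against 10.2%. A match in these letters is a description and was not tested as a binding site. A relation between these letters and the fold changes was not tested either.

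The genes themselves differ widely in structure (GENCODE release 44, GRCh38). HEXIM1 (chromosome 17, 45148475 to 45152099) is a single exon, as are 2.19% of the genes compared, while CDK13 (chromosome 7, 39950121 to 40099580) spreads 14 exons over its locus and CDK12 (chromosome 17, 39461486 to 39567559) also has 14. The others lie on chromosome 9 (CDK9, 127785679 to 127790792), chromosome 12 (CCNT1, 48688458 to 48716998, minus strand), chromosome 2 (CCNT2, 134918235 to 134959342), chromosome 4 (LARP7, 112637077 to 112657696), chromosome 7 (MEPCE, 100428322 to 100434126) and chromosome 14 (CCNK, 99481169 to 99535044). RefSeq starts, used for the windows above, differ from these gene bounds for all members but HEXIM1 and CDK12. The canonical transcripts run from 2107 bases (LARP7) to 9525 (CDK13), with a median of 3625 against 3450 over all tested genes. The pentamer ATTTA, a part of known AU-rich decay elements, occurred a median of 3.26 times per kb of 3′ untranslated region in the members, against 1.82 in 12515 tested genes. Among the members it ranged from 0 per kb (MEPCE) to 3.83 (HEXIM1) and 3.86 (LARP7, from 1 match in 259 bases), and both ends of that range belong to the 7SK inhibitors.

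Without drug the members differed widely in level per kb of transcript. Over the 6 untreated libraries MEPCE had the highest median (516 units per kb, range 455 to 716), followed by CDK9 (365, range 315 to 436), CCNK (304, range 234 to 367), HEXIM1 (251, range 222 to 297), CDK12 (231, range 175 to 273) and LARP7 (212, range 164 to 226). CDK13 (95.8, range 75.0 to 139), CCNT1 (93.6, range 83.1 to 120) and CCNT2 (54.2, range 38.0 to 66.6) were lowest. The ranges of neighbours in this order overlapped from CDK9 through LARP7 and between CDK13 and CCNT1. MEPCE stood clear above CDK9, LARP7 clear above CDK13, and CCNT1 clear above CCNT2. Cyclin T1 mRNA was thus lower per kb than that of its kinase partner in every untreated library.

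After triptolide the order was different. LARP7 was now highest per kb, with a median of 91.8 over 6 treated libraries (range 53.1 to 112), then CCNK (70.5, range 55.1 to 98.9), CDK9 (48.1, range 29.1 to 76.6) and CDK12 (26.7, range 12.6 to 31.2). MEPCE, highest before, had a median of 22.1 (range 12.6 to 26.4), and HEXIM1 one of 12.3 (range 6.62 to 19.5). CCNT1 (8.52), CCNT2 (8.11) and CDK13 (7.75) were lowest and overlapped. Each pair of neighbours in this order overlapped in range, so the new order separates its ends and not its neighbours.

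**Figure D1:**
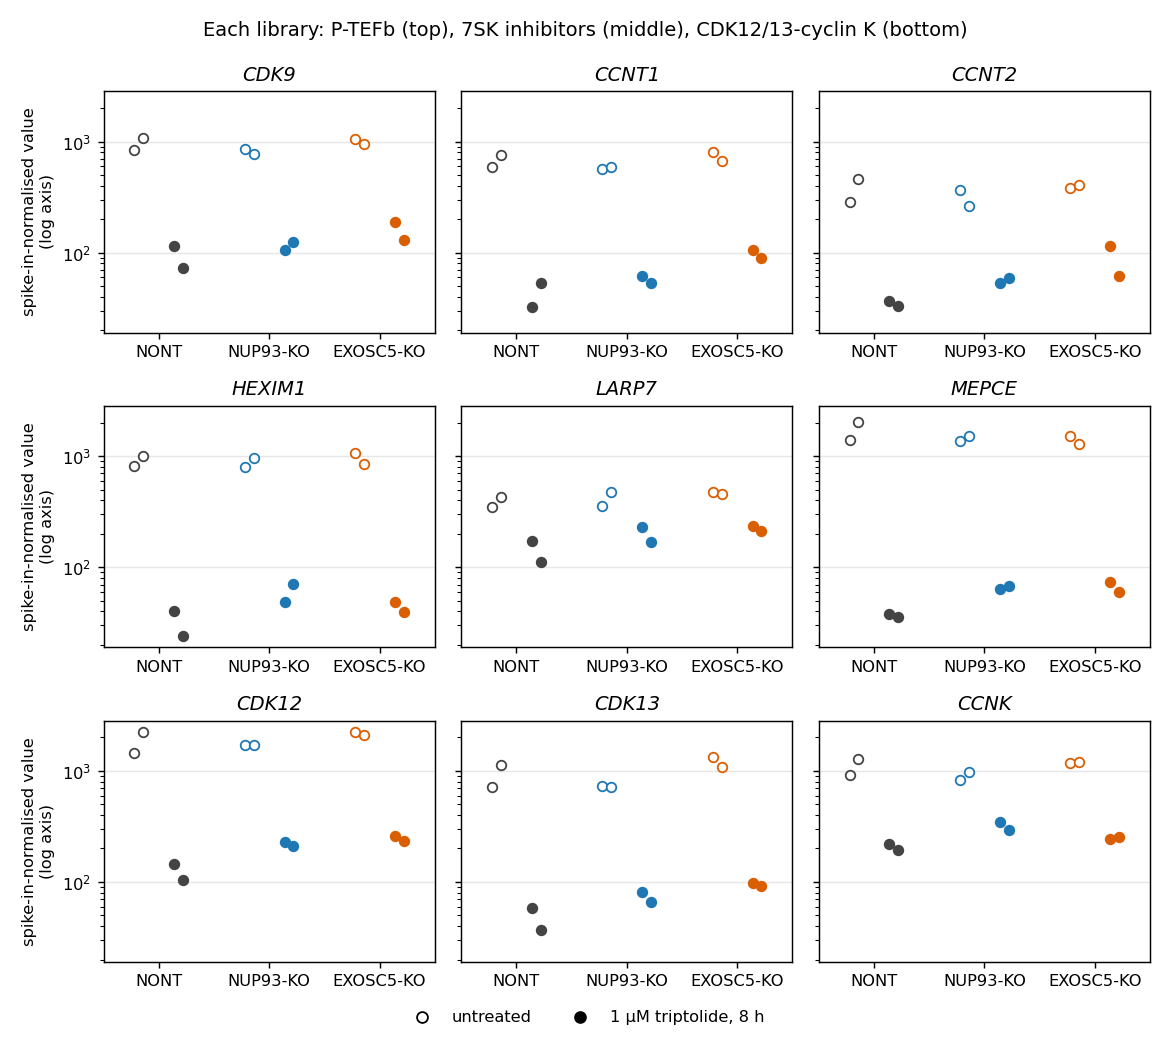
Spike-in-normalised value of each transcript (log axis) in each of the 12 libraries, by genotype; open circles are untreated and filled circles are libraries after 8 h of 1 μM triptolide, 2 replicates a group. In all 9 panels the filled circles lie below the open ones in every genotype, and the share of all genes that do so was not computed. The gap is narrowest for LARP7 (112 to 237 treated, 346 to 477 untreated) and widest for MEPCE (35.5 to 74.4 treated, 1285 to 2020 untreated).

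P-TEFb itself was examined first. CDK9, its catalytic subunit, was 835 and 1082 in the untreated NONT libraries, 855 and 781 in NUP93-KO cells, and 1064 and 955 in EXOSC5-KO cells. After triptolide CDK9 was 114 and 72.4 in NONT, 105 and 124 in NUP93-KO cells, and 190 and 130 in EXOSC5-KO cells. No treated library reached the lowest untreated one. The share of all tested genes with such a gap, here and for the members below, was not computed. Its log2 fold change was −3.37 ± 0.26 in NONT (SE, n = 2 and 2 libraries; limma adjusted p = 8.32e-09), −2.83 ± 0.26 in NUP93-KO (limma adjusted p = 1.66e-07) and −2.67 ± 0.26 in EXOSC5-KO (limma adjusted p = 2.61e-07). In NONT cells 15.3% of tested genes had a lower fold change than CDK9.

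CCNT1, the major cyclin partner, read 593 and 753 in untreated NONT cells, 564 and 594 in NUP93-KO cells, and 815 and 676 in EXOSC5-KO cells. With triptolide CCNT1 read 32.6 and 52.8, 62.1 and 53.6, and 107 and 88.7 in the same order of genotypes. CCNT2, the alternative cyclin, stood at 285 and 461, 366 and 263, and 385 and 409 without drug, and at 36.8 and 33.3, 53.2 and 59.0, and 115 and 61.9 with it. Treated and untreated libraries did not overlap for either cyclin. How common this was over all genes was not computed, and 13658 of the 13811 tested genes had a fold change below 0 in NONT cells. The log2 fold changes of CCNT1 were −3.98 (NONT), −3.30 (NUP93-KO) and −2.92 (EXOSC5-KO), and those of CCNT2 −3.34, −2.45 and −2.22. All 6 changes passed the test across all genes, the weakest being that of CCNT2 in EXOSC5-KO (SE 0.33, limma adjusted p = 2.30e-05).

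Among the 7SK inhibitors, HEXIM1, the protein that inhibits the kinase, read 825 and 1007 in untreated NONT, 806 and 967 in NUP93-KO cells, and 1076 and 853 in EXOSC5-KO cells. Treated HEXIM1 values were 40.4 and 24.0, 49.0 and 70.8, and 48.7 and 39.5. The highest treated value, 70.8, was far below the lowest untreated one, 806. The log2 fold change was −4.83 ± 0.30 in NONT (limma adjusted p = 5.92e-10), −3.88 ± 0.30 in NUP93-KO and −4.42 ± 0.30 in EXOSC5-KO, which left 3.52%, 6.77% and 4.68% of the untreated level on the log2(value + 1) scale. Between 3.57% and 5.71% of tested genes, by genotype, had a lower fold change.

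MEPCE, the 7SK methylphosphate capping enzyme, had values of 1400 and 2020, 1366 and 1514, and 1536 and 1285 without drug in NONT, NUP93-KO and EXOSC5-KO. It dropped to 38.2 and 35.5, 64.0 and 67.5, and 74.4 and 60.5 with triptolide. The fold changes were −5.48 ± 0.24, −4.43 ± 0.24 and −4.37 ± 0.24 (log2, SE), with 2.25%, 4.64% and 4.84% remaining and a limma adjusted p of 3.53e-11, 1.30e-09 and 8.73e-10. Only 3.10% of tested genes in NONT cells had a lower fold change, and 3.28% and 3.74% in the knockouts.

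LARP7, which protects the 3′ end of 7SK, fell less than HEXIM1 and MEPCE in every genotype. Its untreated values were 346 and 431 in NONT, 354 and 477 in NUP93-KO cells, and 472 and 461 in EXOSC5-KO cells, and its treated values were 173 and 112, 228 and 171, and 237 and 213. The groups still did not overlap, a gap whose share over all tested genes was not computed. The fold changes of −1.46 ± 0.27, −1.05 ± 0.27 and −1.05 ± 0.27 passed the test (limma adjusted p = 9.15e-05, 0.00287 and 0.00258), but 55.8%, 45.4% and 50.8% of tested genes fell further than LARP7. In NUP93-KO the call was lost without the second untreated library (−0.84, limma adjusted p = 0.0536).

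The third group holds the kinases of later elongation. CDK12 read 1449 and 2259 in untreated NONT, 1707 and 1696 in NUP93-KO cells, and 2229 and 2122 in EXOSC5-KO cells, and 144 and 104, 231 and 211, and 259 and 236 after triptolide. Its paralog CDK13 read 715 and 1129, 735 and 721, and 1322 and 1090 without drug and 58.5 and 37.2, 81.4 and 66.3, and 96.8 and 91.0 with it. CCNK, the cyclin both use, read 921 and 1293, 825 and 976, and 1166 and 1206 without drug and 220 and 194, 348 and 292, and 244 and 253 with it. Treated and untreated libraries were separate for all 3, and the share of all tested genes that separate in this way was not computed. In the same order of genotypes the log2 fold changes were −3.87, −2.94 and −3.13 for CDK12, −4.24, −3.29 and −3.66 for CDK13, and −2.39, −1.49 and −2.25 for CCNK. The largest limma adjusted p among these 9 changes was 1.73e-05.

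Read against the whole transcriptome, the counts need care, as do the gaps between treated and untreated libraries. The share of all tested genes with such a gap was not computed. All 9 members were called lower in each genotype, but so were 90% of the 13811 tested genes (NONT), 55.1% (NUP93-KO) and 64.3% (EXOSC5-KO) by limma at an adjusted p under 0.05. The median log2 fold change of the members was −3.87 (NONT), −2.94 (NUP93-KO) and −2.92 (EXOSC5-KO), against −1.62, −0.92 and −1.08 over all tested genes. CCNK in NUP93-KO (−1.49) and LARP7 in every genotype were the members nearest to those medians.

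**Figure D2:**
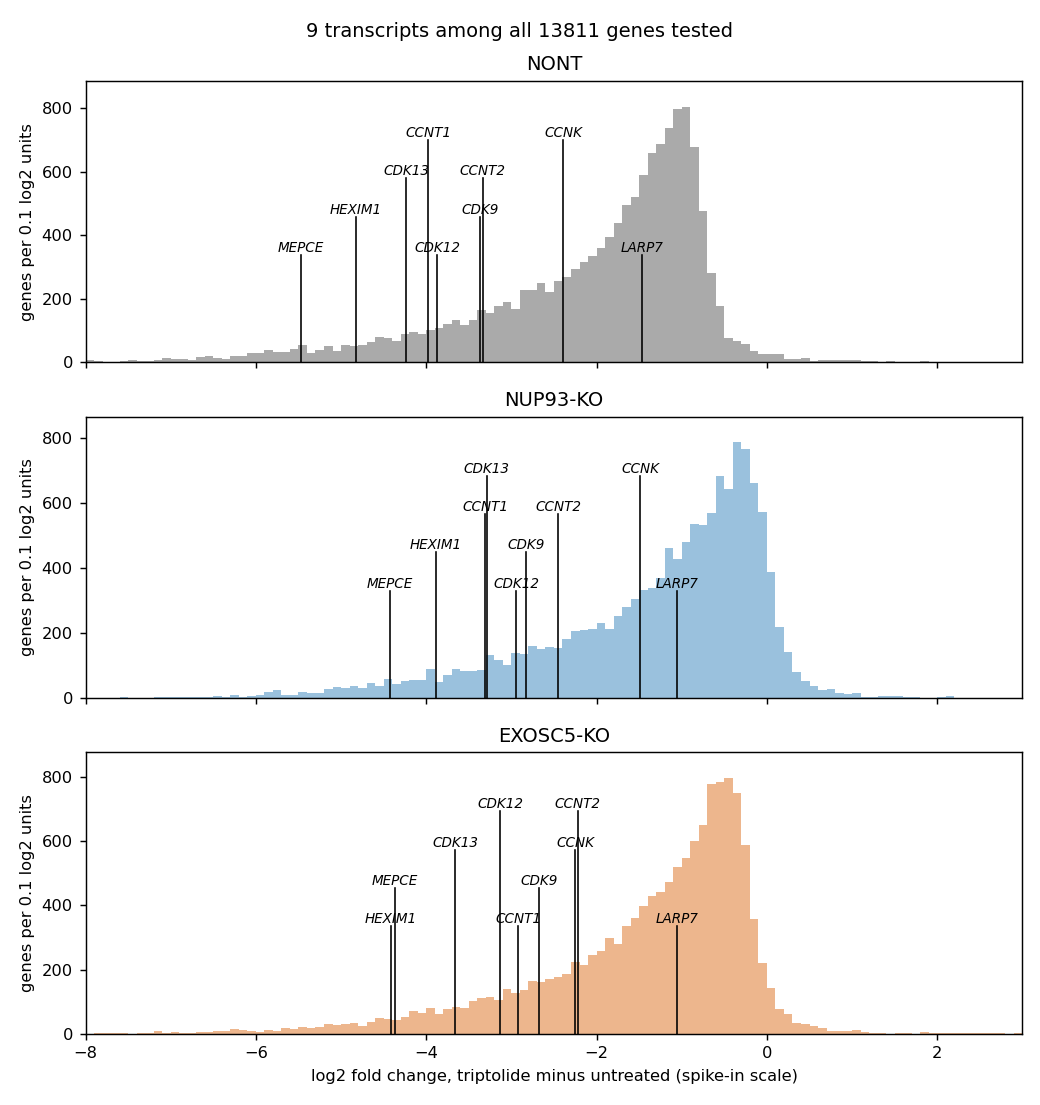
Distribution of the log2 fold change (triptolide minus untreated, spike-in scale) of all 13811 tested genes in each genotype, in bins 0.1 wide, with the 9 transcripts marked by vertical lines whose height has no meaning. MEPCE and HEXIM1 lie in the lower tail in all 3 panels and LARP7 lies near the middle of the distribution (median −1.62, −0.92 and −1.08).

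Because most tested genes were lower, the members were also measured relative to the rest of the library, by centring each library on the median log2 level of its tested genes. On this scale the 7 members CDK9, CCNT1, CCNT2, HEXIM1, MEPCE, CDK12 and CDK13 were lower in NONT and in NUP93-KO, where 20.1% and 20.7% of tested genes were called lower. In EXOSC5-KO 7 members were lower too, with CCNK in (−0.71, limma adjusted p = 0.000355) and CCNT2 out (−0.68, limma adjusted p = 0.0611), against 19.8% of genes. MEPCE was lowest or nearly so at −3.31, −3.05 and −2.82, and HEXIM1 stood at −2.66, −2.50 and −2.88. LARP7 was called higher in NONT (0.70 ± 0.19, limma adjusted p = 0.00726) and EXOSC5-KO (0.49 ± 0.19, limma adjusted p = 0.0412), as were 45.3% and 43.3% of genes, and was not called in NUP93-KO (0.33), where 43.3% were. The NONT call was lost without the second untreated or the first triptolide library, and the EXOSC5-KO call was lost when any 1 of its 4 libraries was left out. Leaving out the second NUP93-KO triptolide library brought LARP7 past the threshold there (0.57, limma adjusted p = 0.0338). CCNT2 was no longer called in NUP93-KO without the first untreated library (−0.76, limma adjusted p = 0.0782) and was called in EXOSC5-KO without the first triptolide library (−1.11, limma adjusted p = 0.00653). The centring sets the median level of the libraries equal and not the median change, which was 0.55, 0.46 and 0.47 over all genes. With libraries scaled to median ratios of genes, the LARP7 difference was 0.18, −0.15 and 0.03 and was not called in any genotype, while the other 8 members were lower in each. The share of all genes called lower with that scaling was not computed.

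**Figure D3:**
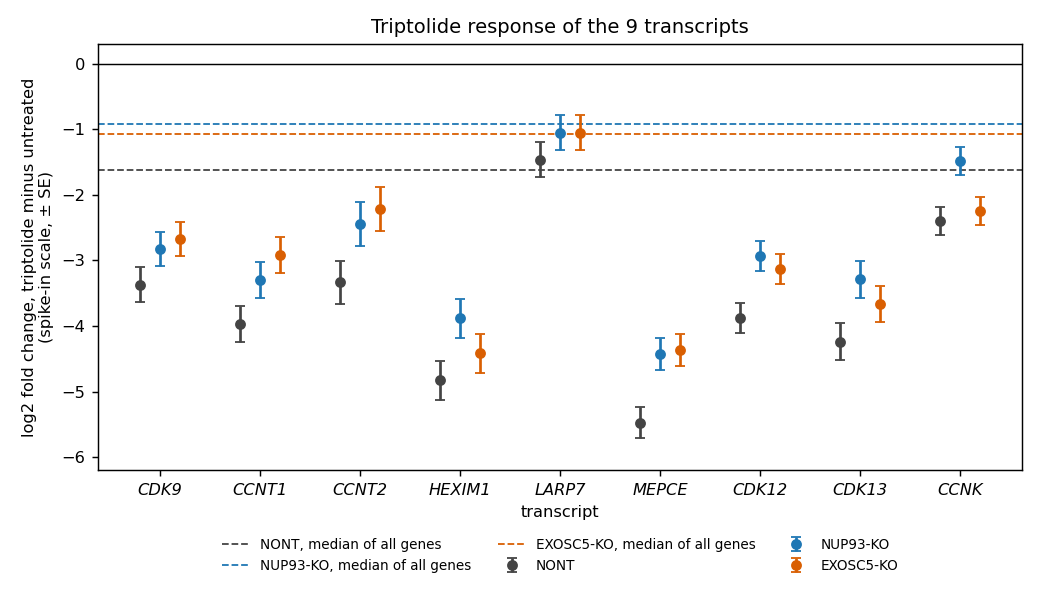
Log2 fold change of each transcript (triptolide minus untreated, spike-in scale; points with bars of ± SE from limma, 2 libraries in each arm) in NONT, NUP93-KO and EXOSC5-KO, with dashed lines at the median of all tested genes in each genotype. Points for 8 of the transcripts lie below their genotype's dashed line, and LARP7, whose direction changes under other scalings, lies near the lines (−1.46, −1.05 and −1.05).

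Ratios of partners within a library are free of any scaling between libraries, and 6 were computed on values per kb. These pairs were picked after the values had been seen, so the ratios are descriptions with no test. The MEPCE to LARP7 ratio was 2.08 to 3.50 in the 6 untreated libraries and 0.164 to 0.295 in the 6 treated ones, a mean log2 change of −3.59 against a replicate SD of 0.25. The ratio of HEXIM1 to CDK9, inhibitor to kinase, went from 0.612 to 0.848 down to 0.175 to 0.390, a change of −1.44 with a replicate SD of 0.17. By genotype the change was −1.49 (NONT), −1.07 (NUP93-KO) and −1.77 (EXOSC5-KO). HEXIM1 mRNA therefore stood lower against CDK9 mRNA in all 6 treated libraries than in any untreated one.

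Cyclin K moved the other way against its kinase. The CCNK to CDK12 ratio rose from between 1.14 and 1.50 to between 2.21 and 4.37, a change of 1.27 (replicate SD 0.14), of which EXOSC5-KO had 0.88 and NONT and NUP93-KO had 1.48 and 1.45. The CDK13 to CDK12 ratio, of 2 paralogs, went from a range of 0.370 to 0.516 to one of 0.273 to 0.354, a small change of −0.43 (replicate SD 0.10), with all 6 treated libraries below the untreated range. For the cyclins of P-TEFb the ratios were less even. CCNT2 to CCNT1 changed by 0.73 with 5 of 6 treated libraries above the untreated range, and CCNT1 to CDK9 by −0.46, about its replicate SD of 0.43, with 4 of 6 below it. CDK12 and CDK13, CCNT1 and CCNT2, and HEXIM1 and HEXIM2 are paralogs, and reads that matched both members of a pair were divided between them by the authors' pseudoaligner.

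**Figure D4:**
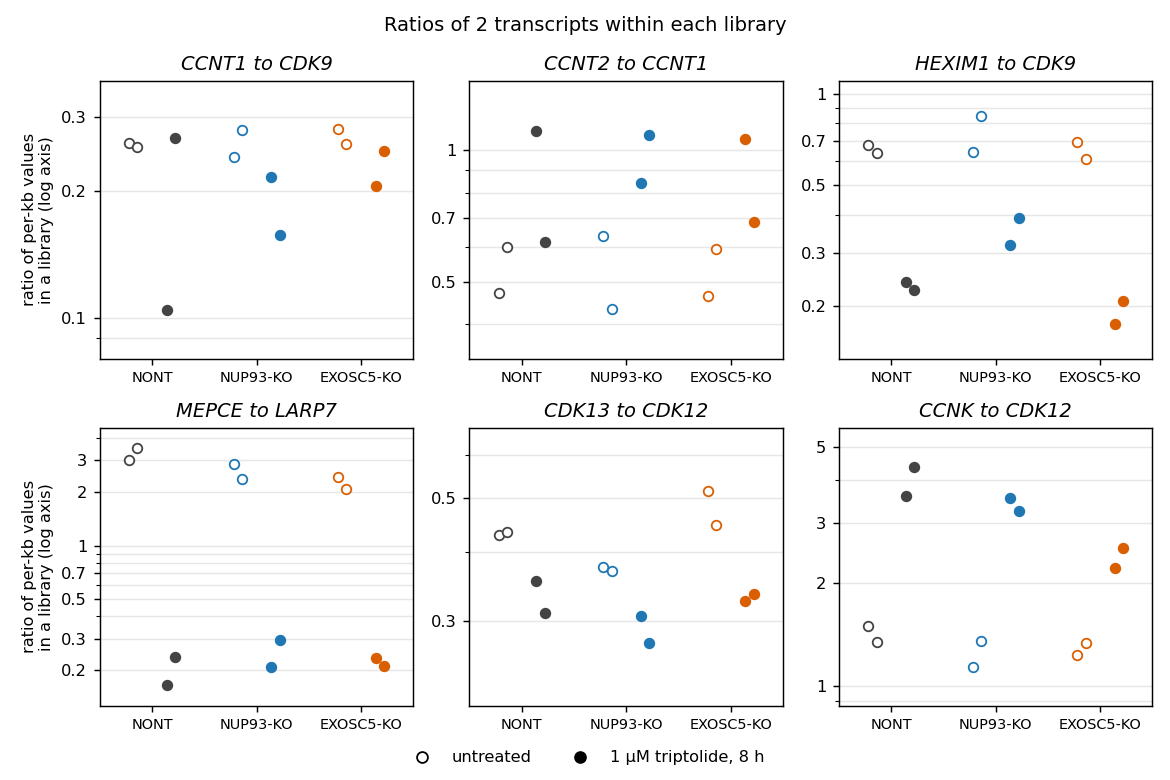
Ratio of the per-kb values of 2 transcripts in each of the 12 libraries (log axis, a scale of its own in each panel), by genotype; open circles untreated, filled circles after triptolide. MEPCE to LARP7, HEXIM1 to CDK9, CDK13 to CDK12 and CCNK to CDK12 do not overlap between open and filled circles, and the first treated NONT library lies lowest for CCNT1 to CDK9 at 0.104. The pairs were picked after the values had been seen, and the share of other gene pairs that separate in this way was not computed.

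Without drug, no member passed the test in either knockout against NONT. In NUP93-KO the log2 differences ran from −0.30 (CDK13) to 0.09 (LARP7), with 0 members called by limma, where 0.0217% of genes were called. An unadjusted p under 0.05 (limma) was reached by 0 members and by 580 of the 13811 tested genes. In EXOSC5-KO the differences ran from −0.26 (MEPCE) to 0.42 (CDK13), again with 0 called, against 0.521% of genes. Here too 0 members had an unadjusted p under 0.05 (limma), against 1173 of the 13811 tested genes. The design leaves wide intervals: for HEXIM1 the 95% interval of the difference from NONT was −0.67 to 0.58 in NUP93-KO and −0.55 to 0.70 in EXOSC5-KO, and for CDK13 in EXOSC5-KO it was −0.17 to 1.01. Differences within such intervals are not excluded with 2 libraries a group. A larger one also went uncalled: EXOSC5 in untreated EXOSC5-KO differed from NONT by −1.08 (95% interval −1.69 to −0.48, limma adjusted p = 0.151).

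Under triptolide more of the member transcripts were found in the knockouts than in NONT cells on the spike-in scale. In NUP93-KO 4 of 9 were higher: HEXIM1 (0.90 ± 0.30, limma adjusted p = 0.0262), MEPCE (0.82 ± 0.24, adjusted p = 0.0174 by limma), CDK12 (0.84 ± 0.23) and CCNK (0.62 ± 0.21). In EXOSC5-KO 6 of 9 were higher: CDK9 (0.78), CCNT1 (1.21 ± 0.27, limma adjusted p = 0.00545), CCNT2 (1.25), MEPCE (0.85), CDK12 (1.00 ± 0.23, limma adjusted p = 0.00549) and CDK13 (0.99). The other 3 did not pass in EXOSC5-KO: LARP7 (0.69, limma adjusted p = 0.05005, at the threshold), HEXIM1 (0.48) and CCNK (0.26). These counts stood against 42.1% and 39.4% of all genes called, and a median of 0.66 and 0.65 over all genes beside member medians of 0.64 and 0.85. Relative to the median level of each library 0 members differed in NUP93-KO and 1 in EXOSC5-KO, where CCNK was lower (−0.45 ± 0.12, limma adjusted p = 0.0283). Of the 13811 tested genes, the same centred fit called 374 higher and 456 lower for NUP93-KO. For EXOSC5-KO it called 718 higher and 1376 lower, so 1 call among 9 members does not set them apart from other genes. The member counts on the spike-in scale also depended on single libraries, and the share of all genes called without a library was not computed. Without the second NONT triptolide library they were 0 and 1, in NUP93-KO the count was 1 or 0 without its first or second triptolide library, and in EXOSC5-KO it was 2 without its first triptolide library.

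The change with triptolide was compared directly between genotypes, with the same NONT libraries serving both knockouts. In NUP93-KO the response was smaller than in NONT by 0.41 (LARP7) to 1.04 (MEPCE) log2 units, with a member median of 0.90 against 0.74 over all genes. No member passed (limma, 0 of 9, against 0.775% of all genes called). An unadjusted p under 0.05 (limma) was reached by 5 members, as by 5748 of the 13811 tested genes. In EXOSC5-KO the difference ran from 0.14 (CCNK) to 1.12 (CCNT2), with a member median of 0.70 against 0.57 and 0 called where 0.333% of genes were. There 4 members had an unadjusted p under 0.05 (limma), as had 3243 of the 13811 tested genes. On the median-centred scale the member medians were 0.12 and 0.07. Leaving out the first NONT untreated library, the lower of that pair, raised the count of members called in both knockouts. Leaving out the first NONT triptolide library raised it in NUP93-KO. The share of all genes called without these libraries was not computed, so no result about the members is drawn from these shifts. Between the knockouts 0 members differed in response (0.0217% of genes called). CCNK had an unadjusted p under 0.05 (limma), as had 597 of the 13811 tested genes. Its difference in response, EXOSC5-KO minus NUP93-KO, was −0.76 ± 0.30 log2 units (95% interval −1.40 to −0.12, limma adjusted p = 0.984).

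Other genes of the elongation machinery and other transcription kinases were read as context for the members. The 33 genes listed, chosen with earlier results of these data known, were all tested. In NONT 32 were lower, in NUP93-KO 25 and in EXOSC5-KO 28, with 0 higher in each and medians of −1.90, −1.17 and −1.50, closer to the median gene than the 9 members. The super elongation complex, which carries P-TEFb to genes, had medians of −2.69, −2.0 and −1.94 with 7 of 8 lower in each genotype. The pausing factors NELF and DSIF, the substrates of CDK9, had medians of −1.42, −0.60 and −0.79 with 6, 3 and 4 of 6 lower. The PAF1 complex and other elongation factors had medians of −2.14, −1.42 and −1.56 with 8, 6 and 7 of 8 lower, and the other transcription kinases and cyclins −1.48, −0.85 and −0.99 with 10, 8 and 9 of 10.

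Within this machinery, the lowest fold change in NONT was that of CDK7, the kinase of TFIIH (−5.68 ± 0.47), in NUP93-KO that of ELL, an elongation factor of the super elongation complex (−4.22 ± 0.45), and in EXOSC5-KO that of LEO1, a PAF1 complex subunit (−4.45 ± 0.35). ELL in NONT (−5.64 ± 0.45) lay within 1 SE of CDK7. Both rested on 5.16 to 13.7 reads a treated library, so their order is not resolved. In EXOSC5-KO neither ELL (−4.31 ± 0.45) nor CDK7 (−4.12 ± 0.47) is resolved from LEO1. The highest were TCEA1, the elongation factor TFIIS, in NONT (−0.90 ± 0.19), NELFE in NUP93-KO (−0.31 ± 0.24, not called) and EAF2 in EXOSC5-KO (0.60 ± 0.80, not called, at values of 1.32 to 14.7). NELFCD lay within 1 SE of TCEA1 in NONT (−0.90 ± 0.20) and of NELFE in NUP93-KO (−0.31 ± 0.20). Other listed genes lay within 1 SE too, such as NELFE in NONT (−0.93 ± 0.24) and TCEA1 in NUP93-KO (−0.37 ± 0.19). The highest gene is therefore not resolved in these genotypes. HEXIM2, the paralog of HEXIM1, was lower per kb in the untreated libraries at 27.8 to 44.1 units per kb against 222 to 297 for HEXIM1, and after triptolide its value was 0 and 1.14 in NONT, 4.74 and 1.98 in NUP93-KO cells, and 4.76 and 3.38 in EXOSC5-KO cells. Each of those treated values rests on fewer than 6 reads, so no fold change is given for it. The 7 repair genes listed as known to depend on CDK12 had medians of −1.92, −0.87 and −0.78, near the median gene, with 7, 4 and 4 of 7 lower. Single repair genes spread widely around those medians, from −4.44 to −0.72 in NONT, −2.81 to 0.37 in NUP93-KO and −2.10 to −0.30 in EXOSC5-KO.

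**Figure D5:**
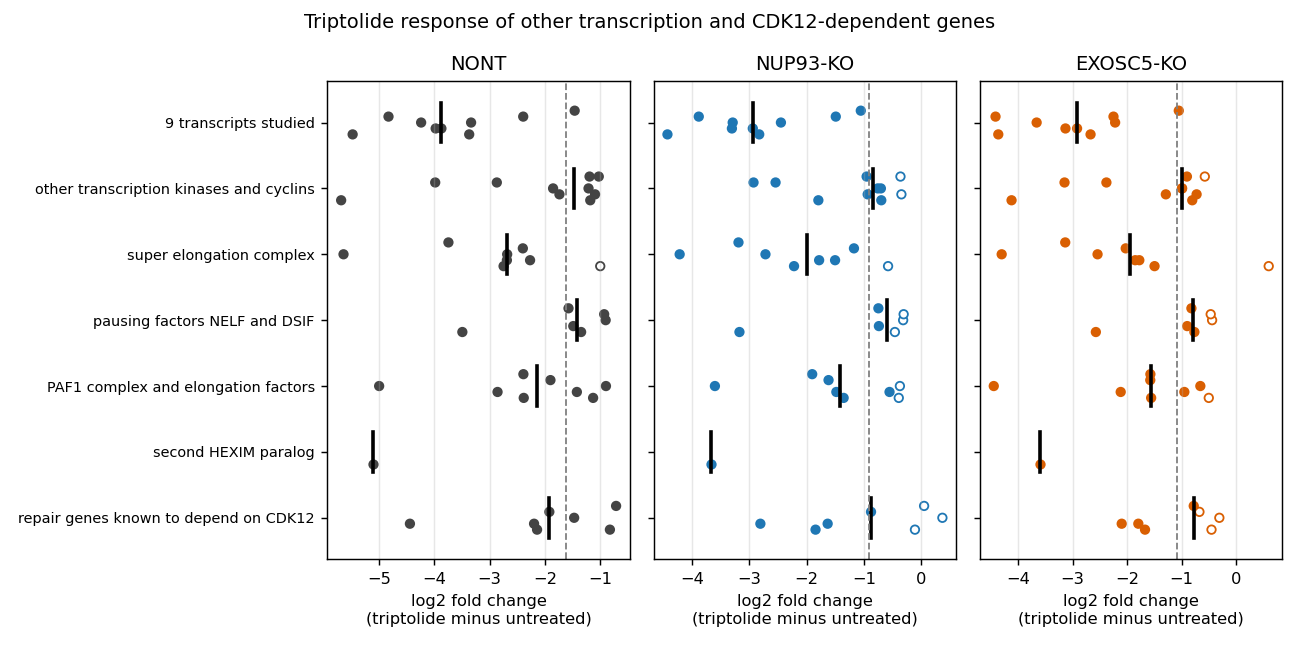
Log2 fold change (triptolide minus untreated, spike-in scale) of the 9 transcripts and of 40 other genes in 6 lists, 7 of them repair genes, by genotype; filled circles passed the test as lower and open circles did not, black ticks are list medians and the dashed line is the median of all tested genes. The 9 transcripts have the lowest median of the lists with more than 1 gene (−3.87, −2.94 and −2.92). This order is a description, since members and lists were chosen with earlier results of these data known.

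Genes whose pattern over the 12 libraries was most like that of a member were found by the Pearson correlation of median-centred log2 values, as a description. For HEXIM1 they were RSBN1, C15orf39 and POM121 (r = 0.995 for each). For CDK9 they were NOCT, BCAR3 and PABPC4L (r = 0.984, 0.982 and 0.982), and for CDK12 OSBP, AAR2 and TNFRSF1A (r = 0.995, 0.994 and 0.994). All 12 libraries share the treated and untreated split, so such values are common: 1470 of 12994 genes exceeded 0.9 with HEXIM1, 1021 with CDK9 and 1538 with CDK12.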

How the data were processed

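Polyadenylated RNA of 12 U2OS libraries was measured with ERCC spike-ins. The values the authors deposited are a spike-in-normalised signal: kallisto 0.46.1 estimated counts (GRCh38), summed per gene with tximport, filtered for protein-coding genes and scaled by size factors that DESeq2 took from the ERCC rows. An error in a cell count or in spike-in volume moves a whole library. Since kallisto splits reads, the values did not return whole reads, and count models were not applied. The depths given are approximate, from the worth of 1 read in each library.

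Genes with an untreated mean of at least 10 (13811 of 22379) were analysed as log2(value + 1), which understates changes of low genes, with limma 3.58.1 in R 4.3.3 (6 group means, eBayes with trend, Benjamini-Hochberg over all tested genes, adjusted p under 0.05), two-sided. The centred fits subtract the median log2 level of each library. Symbols and structures came from GENCODE release 44 (19584 genes matched), and promoters from RefSeq. Scripts were tested on simulated data. Summaries used Python 3.11.15.

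Alternatives were other scalings, a pseudocount of 5, a minimum of 50, no minimum, no trend, only the groups compared, a replicate block and leaving out each library. The members and lists were chosen with earlier results of these data known, and 1 gene of the elongation lists is not reported here. The genes named were the 9 members, the 2 targeted genes, the 3 closest patterns for HEXIM1, CDK9 and CDK12, HEXIM2, the cell type markers, and for each genotype the listed elongation or kinase gene with the lowest and the highest fold change.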

Additional observations from a re-analysis of the deposited data

How the results depend on the processing

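The count of members lower after triptolide was 9 of 9 in each genotype and became 8 with median of ratios and with the same total per library, 7 with centring, and 8 in NUP93-KO without its second untreated library, and was 9 under the others, and of 27 member and genotype results on the spike-in scale 21 kept their direction and call under all 14 alternatives run. The others were LARP7, CCNK in NONT and NUP93-KO and CCNT2 in EXOSC5-KO, which lost the call under some scalings. LARP7 reversed with median-of-ratios scaling in NONT (0.18) and EXOSC5-KO (0.0274) and with centring with 0.70 (NONT), 0.33 (NUP93-KO) and 0.49 (EXOSC5-KO). Starting from the centred fit, LARP7 reversed with the same total per library in NONT (−0.13) and EXOSC5-KO (−0.26) and with the same mitochondrial mRNA sum with −1.11 (NONT), −1.35 (NUP93-KO) and −1.14 (EXOSC5-KO). The count of members higher relative to the library, 1 (NONT) and 1 (EXOSC5-KO), was 0 under each of these 3 scalings, and in EXOSC5-KO also 0 with a minimum of 50 and without the trend. In NUP93-KO it was 1 with no minimum.

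Under triptolide the count of members that differed from NONT, 4 (NUP93-KO) and 6 (EXOSC5-KO), became 0 and 1 with median of ratios, same total and centring (chosen after seeing the data for this comparison), 0 and 0 with the mitochondrial sum, and 1 and 2 with only the groups compared; without the trend it was 2 in NUP93-KO. CCNK reversed in NUP93-KO with median of ratios (−0.051), same total (−0.033) and centring (−0.082), and in EXOSC5-KO with median of ratios (−0.40) and centring (−0.45). CDK9 reversed in EXOSC5-KO with the mitochondrial sum (−0.042).

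Leaving out each library gave 0 to 6 members in NUP93-KO and 1 to 8 in EXOSC5-KO under triptolide, 0 to 5 and 0 to 4 for the difference in response, 8 to 9 for triptolide in NUP93-KO, and 0 to 1 (NONT), 0 to 1 (NUP93-KO) and 0 to 0 (EXOSC5-KO) members higher relative to the library. Replicate numbers did not pair the libraries: over 15 pairs of groups the correlation of deviations was −0.05 to 0.04. With a replicate block the counts were 9, 9 and 9 for triptolide, 4 and 6 under triptolide, 0 for each difference in response and 7, 7 and 7 relative to the library, the same as without it. The share of all genes called without a library, or under any alternative other than centring, was not computed. The cause of these shifts was not tested. Depth limits HEXIM2 and EAF2 more than any member.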
